A study of Mus musculus with 5 samples.

Results

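A set of 35 genes of T lymphocytes linked to the nuclear protein SATB1 was followed in mouse embryonic stem (ES) cells in which Satb1 was switched on. The genes were taken by symbol through the array's probe annotation, and 33 of the 35 had a probe set with that single symbol, out of 19938 named genes in all. Il2rg and Lck had none. Each of the 33 genes had 1 such probe set. Expression was read on 5 microarrays of biotin-labelled total RNA. All cells carried a Satb1 transgene under the tetO promoter, which responds to doxycycline (DOX), and were kept in serum medium with the cytokine LIF. The 2 uninduced arrays (tetO-Satb1 #1 and #2) came from cells without DOX, and the 3 induced arrays (tetO-Satb1 #1, #2 and #3 +DOX) from cells given DOX for 24 h, with RNA taken 48 h after passaging in both groups. The treatment protocol names irradiated feeder cells, which were allowed to settle for 10 min before the top 50% of the suspension was taken for RNA. What the title numbers stand for, whether as clones or cultures, is not given in the labels, so a p-value reflects only how these arrays vary, and that variation may be technical. No cells without the transgene were given DOX, so the effect of the drug and that of the transgene cannot be told apart.

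SATB1 binds AT-rich DNA that opens easily into single strands, and in developing T cells it holds chromatin in loops and recruits enzymes that modify histones. It is abundant in thymocytes, the immature T cells of the thymus, where mice without it have a block in T cell development. Genes tied to it there include Il2ra, the coreceptor genes Cd4 and Cd8a, the recombinase genes Rag1 and Rag2, and the cytokine genes of T helper 2 cells. The comparison asks if forced Satb1 was accompanied by a change of such genes, in either direction, in a cell type of another lineage.

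No T lymphocyte gene passed the test for a change with induction, in a fit whose threshold the Satb1 probe set missed too. Of the 33 measured genes, 0 were higher and 0 were lower at an adjusted p under 0.05 (limma, Benjamini-Hochberg over all 19938 genes), 0 reached an unadjusted p under 0.05 (1.55% of all genes did), and the lowest adjusted p was 0.770. Over all genes the same test called 3, or 0.0150%, with 0.0100% higher and 0.00502% lower, so a count of 0 among 33 genes is what the background gives. With the shared spread described below the test called 0 of the 33 and 0.00502% of all genes. The median log2 change of the 33 genes was 0, as it was over all genes. Means were higher in induced cells for 16 of the genes, lower for 11 and equal for 6, against 39.6%, 45.3% and 15.1% of all genes. The Satb1 probe set stood at a log2 level of 4.95 and 5.34 without DOX and at 8.61, 8.79 and 8.68 with DOX. This change of 3.55 missed the threshold in the fit over all genes (limma, adjusted p = 0.229) and passed it when the shared spread was taken from genes with 5 distinct values (limma, adjusted p = 0.0038).

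Exact ties between arrays shape most of the values that follow. The deposited levels repeat from array to array, and 28 of the 33 genes had the same value on at least 3 of the 5 arrays, as 73.3% of all genes did. Such ties make the estimated spread too small for some genes. Intervals of change are therefore given with the spread that limma learned from the 1800 genes with 5 distinct values. These intervals can still be too narrow for tied genes.

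With these intervals, each of the 33 genes was bounded within 1.5-fold in either direction. For the 6 genes with 1 value on all arrays, the interval of -0.13 to 0.13 was set by the shared spread and not by their own values. The highest upper bound was a log2 change of 0.57, or 1.48-fold higher, for Dntt, and the lowest lower bound was -0.40, or 1.32-fold lower, for Il5. All 33 intervals included 0. In the same fit Satb1 had an interval of 3.23 to 3.86. Changes in a transcript too scarce to raise its probe set above background would not be detectable on these arrays.

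**Figure D1:**
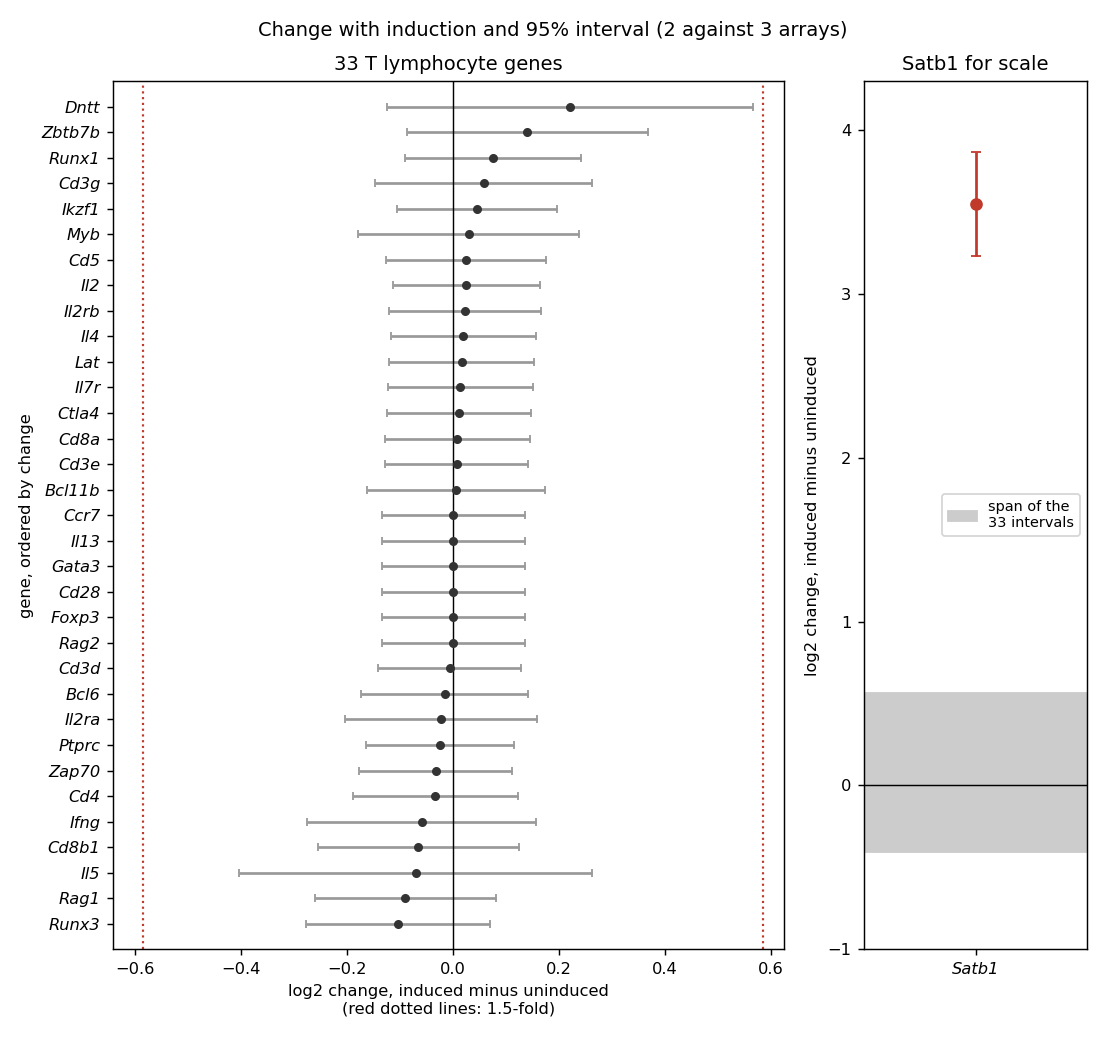
Log2 change of each T lymphocyte gene, induced minus uninduced, with its 95% interval (left), and Satb1 on its own axis beside the span of those intervals (right). All 33 intervals include 0 and lie inside the 1.5-fold lines, between -0.40 and 0.57, while Satb1 stands at 3.55.

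Most of the genes were also low on the arrays. The median of all genes lay between 5.05 and 5.07 on the log2 scale, depending on the array. Of the 33 genes, 6 lay above it on all arrays, 1 (Bcl11b) on 3 of the arrays, and 26 on none. By contrast, 48.2% of all genes lay above it on every array. The position of a probe set depends on how well its probes bind as well as on its transcript, so it describes the arrays and ranks no transcripts. As a guide to silent genes, 1027 olfactory receptor genes, which work in sensory neurons of the nose, had medians between 3.26 and 3.30 and a 95th percentile between 4.87 and 4.89. On every array 7 of the 33 T lymphocyte genes (21.2%) stood above that percentile, and Myb did so on 4 arrays. These 7 were Zbtb7b, Cd8a, Gata3, Il13, Cd3e, Ccr7 and Bcl11b, with mean levels of 5.07 to 5.50. The share above it on every array was 52.9% for all genes and 3.99% for the olfactory receptor genes themselves. In bulk RNA, few cells with a transcript and little of it in each cell cannot be told apart.

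**Figure D2:**
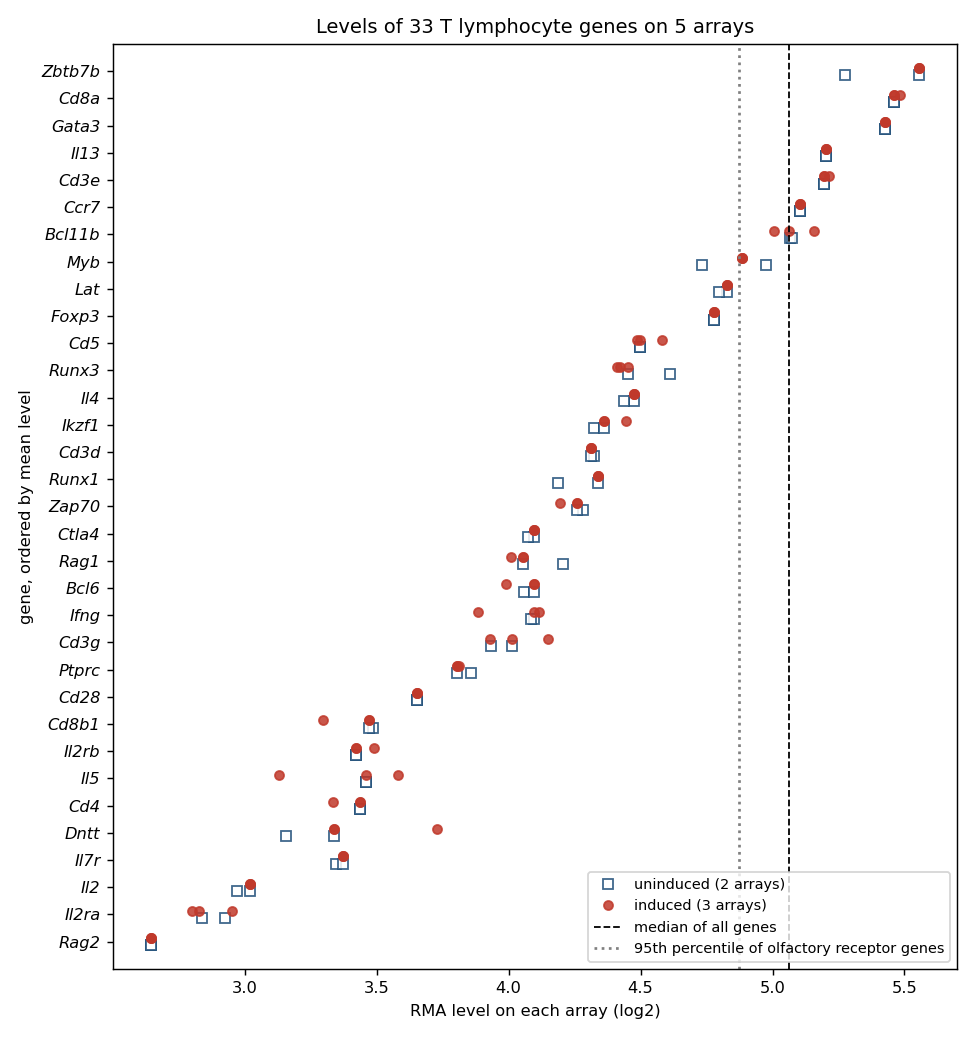
Level of each T lymphocyte gene on the 2 uninduced arrays (open squares) and the 3 induced arrays (filled circles), on the RMA log2 scale, with the median of all genes and the 95th percentile of olfactory receptor genes, each averaged over the arrays. Genes run from Rag2 at 2.65 to Zbtb7b at a mean of 5.50, and in no gene do the squares and circles separate.

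Probe sets of ES cell markers lay above the array median, and most of those of T lymphocyte markers lay below it. All 15 ES cell markers, among them Pou5f1 and Sox2, lay above the array median on every array, with mean levels of 5.55 to 11.2. With induction 11 of the 15 (73.3%) had a lower mean, against 45.3% of all genes, and none passed. The share was alike, 14 of 19 (73.7%), for known partners of SATB1, which also stood at high levels. Of the 15, 2 (13.3%) were lower on every induced array than on both uninduced ones, where 3.08% of all genes were. Separation in either direction was more frequent at high levels, with 7.41% of genes above a mean level of 5.50 against 4.73% of all genes. These were Klf4 (change -0.35, 95% interval -0.73 to 0.03) and Tdgf1 (change -0.21, 95% interval -0.36 to -0.06), and neither passed (limma, adjusted p = 0.770 for both). Of 8 measured markers that define T lymphocytes, Cd8a and Cd3e lay above the array median on every array and Cd3d, Cd3g, Cd4, Cd8b1, Ptprc and Cd247 on none. The mean level of these 8 markers was 4.26 and 4.23 without DOX and 4.24, 4.25 and 4.21 with DOX, so the groups overlapped. The mean of 23 feeder fibroblast genes was 5.20 and 5.22 in uninduced and 5.21, 5.21 and 5.22 in induced cells. None of the 23 passed. In 1 of them (4.35%), the collagen crosslinking gene Lox, the groups separated, near the 4.73% of all genes. Lox was at 4.81 and 4.76 without DOX and 4.59 on each induced array (change -0.20, 95% interval -0.34 to -0.06; limma, adjusted p = 0.697). The part of these marker values in the results below was not tested.

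The promoters of 3 genes are shown because SATB1 prefers A and T bases and because these windows are rich in them. They are not the richest of the set, since a window of Ptprc had 66.3% A and T and 1 of Il4 had 62.0%. Il2ra encodes the alpha chain of the interleukin 2 receptor, Il5 a cytokine of T helper 2 cells, and Bcl11b a transcription factor that commits cells to the T lineage. Windows run from 250 bases before to 50 bases after the start of a transcript (RefSeq, build GRCm38.p6), and capitals mark runs of at least 6 A or T bases. Il2ra lies at chr2:11642542-11642841 (+ strand), Il5 at chr11:53720544-53720843 (+ strand) and Bcl11b at chr12:108003365-108003664 (- strand).
Il2ra: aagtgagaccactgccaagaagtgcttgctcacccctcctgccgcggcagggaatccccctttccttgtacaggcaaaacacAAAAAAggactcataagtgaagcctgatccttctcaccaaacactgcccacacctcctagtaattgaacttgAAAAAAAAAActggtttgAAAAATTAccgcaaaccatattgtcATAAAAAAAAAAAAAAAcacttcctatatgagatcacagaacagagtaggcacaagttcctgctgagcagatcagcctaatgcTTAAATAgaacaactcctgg
Il5: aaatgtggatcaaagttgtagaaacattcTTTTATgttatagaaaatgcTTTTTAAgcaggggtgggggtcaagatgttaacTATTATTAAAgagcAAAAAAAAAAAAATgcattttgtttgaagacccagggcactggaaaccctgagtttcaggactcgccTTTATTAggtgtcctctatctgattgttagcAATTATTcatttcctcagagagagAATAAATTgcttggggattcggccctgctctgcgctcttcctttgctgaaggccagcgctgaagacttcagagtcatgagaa
Bcl11b: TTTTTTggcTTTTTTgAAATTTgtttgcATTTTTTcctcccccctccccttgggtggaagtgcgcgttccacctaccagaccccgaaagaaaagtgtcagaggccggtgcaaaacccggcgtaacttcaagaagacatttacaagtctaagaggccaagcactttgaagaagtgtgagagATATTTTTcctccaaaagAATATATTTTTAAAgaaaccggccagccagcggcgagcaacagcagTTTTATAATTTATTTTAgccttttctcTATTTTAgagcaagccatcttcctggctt
The share of A and T was 57.3% in the Il2ra window, 60.0% in that of Il5 and 57.0% in that of Bcl11b, with longest A/T runs of 17, 14 and 17 bases. Of all 32851 windows in the table, 15.6%, 10.0% and 16.5% had a higher share than these. For the T lymphocyte genes as a whole no test was made. Their 41 windows, from 30 genes, had a median share of 49.7% against 47.3% over all windows, and 56.1% of them held a run of at least 6 against 69.6%. The motif AATATATTT, the core of a DNA element known to unwind and to be bound by SATB1, was searched on both strands. It was found in 1 of the 41 windows, that of Bcl11b, and in 0.371% of all windows. The windows of Ikzf1 ran from 18.7% to 51.0% A and T, and those of Gata3 and Myb had 32.7% and 25.0%. A match is a description of the sequence and not a site that was measured here.

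The receptor genes for interleukins lay below the array median on all arrays. Il2ra, whose promoter is shown above, stood at 2.92 and 2.84 without DOX and at 2.80, 2.82 and 2.95 with DOX. The lowest and the highest value were both on induced arrays, so the groups overlapped, and the change was -0.02 (95% interval -0.20 to 0.16). Only Il2ra and Bcl11b among the 33 genes had 5 distinct values. Il2rb, the beta chain shared by the receptors for interleukins 2 and 15, was at 3.42 on all arrays but induced array 1, at 3.49. Il7r, the receptor gene needed for survival of early lymphocytes, was at 3.35 on uninduced array 1 and 3.37 on the rest. The chemokine receptor gene Ccr7, which guides T cells into lymph nodes, had a single value of 5.11 on all arrays.

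The CD3 genes, which encode the signalling subunits of the T cell receptor, lie side by side in the order Cd3e, Cd3d and Cd3g with no other protein-coding gene between them. They departed from their usual value on different arrays. Cd3e was at 5.19 on 4 arrays and 5.21 on induced array 1. Cd3d was at 4.31 on 4 arrays and 4.32 on uninduced array 1. Cd3g was at 4.01 and 3.93 in uninduced and at 4.01, 4.15 and 3.93 in induced cells, so the 2 lower values were split between the groups. The upper bounds of change for these genes were 0.14, 0.13 and 0.26.

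The coreceptor genes, which mark helper and cytotoxic T cells, gave a like picture. Cd8a, the alpha chain of CD8, was at 5.46 on 4 arrays and 5.48 on induced array 3. Its direct neighbour Cd8b1, the beta chain, was at 3.49 and 3.47 in uninduced and at 3.47, 3.47 and 3.30 in induced cells. The lowest Cd8b1 value was thus on the array where Cd8a was highest. Cd4 was at 3.44 on 4 arrays and 3.34 on induced array 2, with a change of -0.03 (95% interval -0.19 to 0.12). Cd5, which dampens receptor signals, was at 4.50 on both uninduced arrays and at 4.49, 4.50 and 4.58 on the induced arrays.

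Genes of receptor signalling and costimulation were tied on most arrays. Zap70, the kinase that binds the activated receptor, was at 4.28 and 4.26 in uninduced and at 4.26, 4.20 and 4.26 in induced cells. Lat, the membrane scaffold that Zap70 phosphorylates, was at 4.83 on 4 arrays and 4.80 on uninduced array 2. Ptprc, which encodes the CD45 phosphatase of blood cells, was at 3.86 and 3.80 in uninduced and at 3.80, 3.80 and 3.81 in induced cells. The costimulatory receptor gene Cd28 had the same value, 3.65, on all arrays. Its neighbour Ctla4, which encodes an inhibitory receptor, was at 4.09 on 4 arrays and 4.07 on uninduced array 2. None of these groups separated.

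The genes that cut and extend antigen receptor genes held the largest change. Dntt, the polymerase that adds bases at the joints, was at 3.34 and 3.16 without DOX and at 3.34, 3.73 and 3.34 with DOX. Its change was 0.22 (95% interval -0.13 to 0.57), the largest of the 33 genes in size, and it did not pass (limma, adjusted p = 0.770). Induced array 2 carried most of it, since without that array the change was 0.09. Rag1, a recombinase subunit, was at 4.06 and 4.21 in uninduced and at 4.06, 4.01 and 4.06 in induced cells, with a change of -0.09 that was -0.02 without uninduced array 2 and -0.17 without uninduced array 1. The other subunit gene and direct neighbour, Rag2, was at 2.65 on all 5 arrays and was the lowest of the 33 genes. Dntt and Rag1 thus left their usual values on the same 2 arrays, in opposite directions.

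The cytokine genes of T helper 2 cells lie together, with Il4 beside Il13 and the DNA repair gene Rad50 between Il13 and Il5. SATB1 is known to fold this locus when such cells are activated. Il4, the interleukin that drives this fate, was at 4.47 on 4 arrays and 4.44 on uninduced array 2. Il13, an effector of mucosal responses, was at 5.20 on all arrays. Il5, the growth factor gene of eosinophils, was at 3.46 on both uninduced arrays and at 3.58, 3.46 and 3.13 on the induced arrays. Its induced values lay on either side of the uninduced ones and spread more widely than its change of -0.07. Il2, the T cell growth factor gene, was at 3.02 on 4 arrays and 2.97 on uninduced array 2. Ifng, the interferon of T helper 1 cells, was at 4.09 on both uninduced arrays and at 4.09, 4.11 and 3.88 on the induced arrays.

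Transcription factor genes of the T lineage included the highest levels. Zbtb7b, which directs cells to the helper fate, was at 5.27 on uninduced array 1 and 5.56 on each other array. Its change of 0.14 (95% interval -0.09 to 0.37) was 0 without that array. Runx3, which favours the cytotoxic fate, was at 4.61 and 4.45 in uninduced and at 4.42, 4.45 and 4.41 in induced cells. Its change of -0.10 was the lowest of the 33 genes and was -0.02 without uninduced array 1, the array with the high value, and -0.18 without uninduced array 2. Runx1, needed for the first blood stem cells and for thymocytes, was at 4.19 on uninduced array 1 and 4.34 on the rest. On uninduced array 1 Zbtb7b and Runx1 thus had their lowest value and Runx3 its highest.

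Of the remaining factors, Gata3, the master factor of T helper 2 cells, had 5.43 on all arrays, and Foxp3, that of regulatory T cells, had 4.78 on all arrays. Bcl11b was at 5.07 on both uninduced arrays and at 5.06, 5.01 and 5.16 on the induced arrays, on either side of the array median. Bcl6, which makes follicular helper cells, was at 4.06 and 4.09 in uninduced and at 3.99, 4.09 and 4.09 in induced cells. Ikzf1, the lymphoid factor Ikaros, was at 4.32 and 4.36 in uninduced and at 4.36, 4.36 and 4.44 in induced cells. Myb, a factor of blood progenitors and thymocytes, was at 4.73 and 4.98 in uninduced and at 4.88 on all induced arrays, so that the induced value lay between the uninduced ones, which were 0.24 apart.

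**Figure D3:**
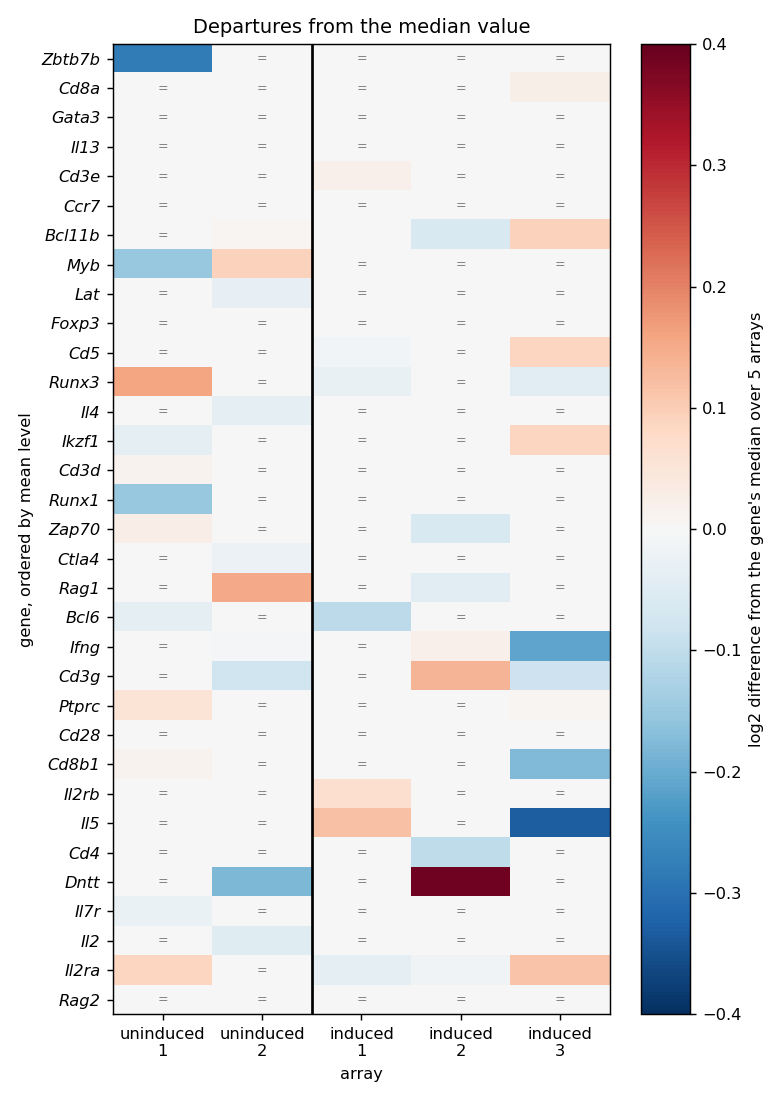
Difference of each value from the median of its gene over 5 arrays (colour, log2), with genes in rows and arrays in columns and a line between the groups; an equals sign marks a value identical to that median. Most cells carry the sign, the darkest are Dntt on induced array 2 and Il5 on induced array 3, and no gene has one colour on both uninduced arrays against another on all induced arrays.

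Groups did not separate in any of the 33 genes, where 4.73% of all genes had every induced value above or every induced value below both uninduced values (1.65% above and 3.08% below). At the members' own range of levels, 2.65 to 5.50, this share was 2.97% of 11080 genes. These counts depended on the processing. Quantile normalization applied again, which breaks ties and shifts other values too, separated 9 of the 33 genes (27.3%) and 19.3% of all genes. The changes of these 9 were 0.22 or less in size. Centring the arrays on their medians, which also breaks ties, separated 1 of the 33 and 8.90% of all genes. The part of ties in these counts was not tested. Calls also depended on having 2 uninduced arrays. With uninduced array 1 left out, Ctla4, Il2, Il4 and Lat passed as higher and Myb as lower, in a fit that called 9.93% of all genes and assumed the lone uninduced array to vary like the induced ones. With uninduced array 2 left out, Il7r, Myb, Runx1 and Zbtb7b passed as higher and Cd3d as lower, again with 9.93% of all genes called. Myb was at -0.09 in the former fit (limma, adjusted p = 0.00027) and at 0.15 in the latter (limma, adjusted p = 0.00018), and it was the only member to pass in both.

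Further genes of T cell receptor signalling did not pass the test either. Of 28 measured genes of 30, 0 passed in either direction (limma), 0 reached an unadjusted p under 0.05, the median log2 change was 0.0069, and 6 (21.4%) lay above the array median on every array. Plcg1, a phospholipase used in many cell types, was the highest at a mean of 6.52, with a change of 0.07. Bcl10, a scaffold on the path to NF-kB, was at 5.16 and 5.29 in uninduced and at 5.36, 5.45 and 5.29 in induced cells, with a change of 0.14 (95% interval -0.05 to 0.33). Its lowest induced value equalled the higher uninduced one. Skap1, an adaptor of T cell adhesion, was the 1 gene of 28 whose groups separated (4.73% of all genes did), at 3.81 and 3.75 against 3.72 on each induced array.

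Genes of T cell development and fate gave no call. Of 28 measured genes of 30, 15 (53.6%) lay above the array median on every array, near the 48.2% of all genes, 0 passed (limma, 1 at an unadjusted p under 0.05), and the median change was 0. Lef1, a factor of the WNT pathway, was at 6.03 and 6.04 in uninduced and at 5.91, 5.89 and 5.91 in induced cells (change -0.13, limma adjusted p = 0.272). Socs3, a feedback inhibitor of cytokine signals that LIF also drives, was at 6.81 on both uninduced arrays and at 6.74, 6.57 and 6.70 on the induced arrays (change -0.14, 95% interval -0.32 to 0.04). In both genes, 2 of the 28, the groups separated, as lower, where 3.08% of all genes did, and neither passed. The highest of the list were Klf2 and Id2, at means of 7.70 and 7.63.

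No gene around the T helper 2 cytokine genes passed the test. Of 17 measured neighbours, 3 were at an unadjusted p under 0.05 (limma; 1.55% of all genes were). In 3 of the 17 every induced value lay below both uninduced ones and in 1 above them, against 3.08% and 1.65% of all genes. Aff4, a subunit of a transcription elongation complex, was at 8.53 and 8.52 in uninduced and at 8.34, 8.33 and 8.39 in induced cells (change -0.17, 95% interval -0.31 to -0.03). Its neighbour Zcchc10 was at 6.17 and 6.21 in uninduced and at 6.05, 5.87 and 5.91 in induced cells (change -0.25, 95% interval -0.44 to -0.06). Rad50, which lies between Il13 and Il5, was at 7.49 and 7.43 against 7.42, 7.42 and 7.39, and Gdf9, an oocyte growth factor gene, was the higher 1 at 4.17 on both arrays without DOX and 4.25, 4.28 and 4.25 with DOX. None passed over all genes (limma, adjusted p = 0.770 for each of the 4).

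The known partners of SATB1 stood at high levels on the arrays. Of 19 measured genes of 20, 18 lay above the array median on every array, with a median level of 8.12, and 0 passed (limma, 1 at an unadjusted p under 0.05). Hdac1, a histone deacetylase, was the highest at a mean of 9.94, with a change of -0.03. Hdac2, its close relative, was at 8.89 and 8.93 in uninduced and at 8.83, 8.74 and 8.80 in induced cells (change -0.12, 95% interval -0.27 to 0.03). It was the 1 gene of 19 (5.26%) whose groups separated, as lower, where 3.08% of all genes did. Means were lower with induction for 14 of the 19 (73.7%), against 45.3% of all genes.

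**Figure D4:**
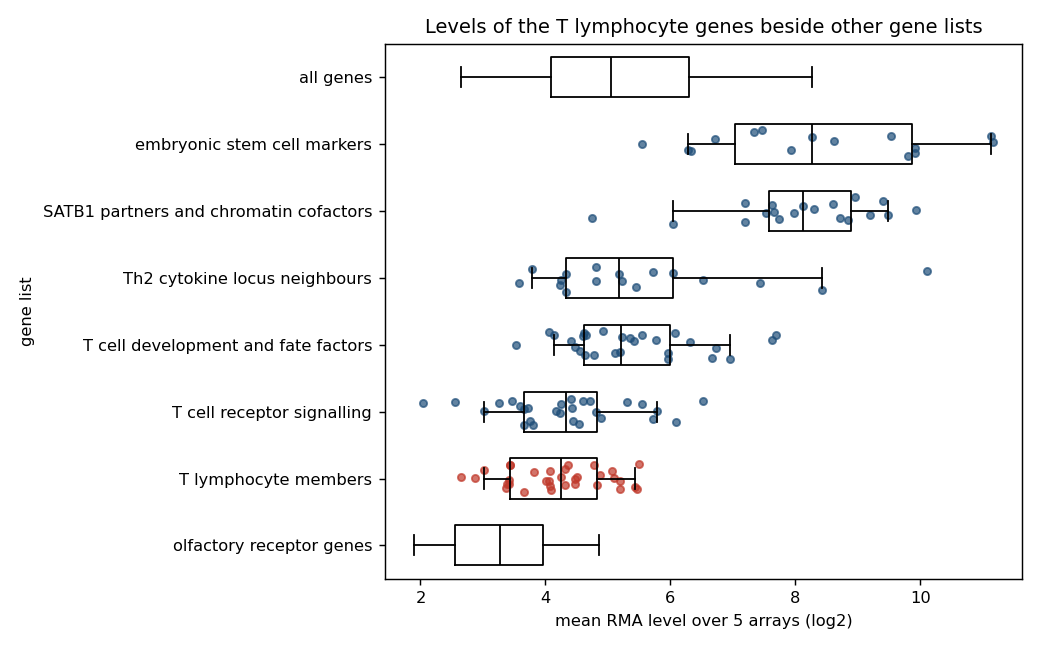
Mean level over 5 arrays (log2) of the genes in each list, as points for the smaller lists and as boxes (quartiles, with whiskers at the 5th and 95th percentiles) for all. The T lymphocyte genes have a median of 4.25, between the 3.27 of olfactory receptor genes and the 5.06 of all genes, and ES cell markers and SATB1 partners lie at 8.26 and 8.12.

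Segments of the T cell receptor genes themselves were measured for 9 names. Their median level was 2.85, and Trav13-5 and Trbv1 lay above the array median on every array. Trbv1 was at 5.44 and 5.47 in uninduced and at 5.58, 5.60 and 5.59 in induced cells, a change of 0.14 (95% interval 0.00093 to 0.27) that did not pass over all genes (limma, adjusted p = 0.612). Together with Trav7d-4 it was 1 of 2 segments of the 9 whose induced arrays all lay higher, and 0 lay lower, against 1.65% and 3.08% of all genes. Segments of this family resemble each other, so their probe sets can share signal.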

How the data were processed

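The deposited table holds log2 levels of 35557 probe sets on 5 arrays, which the authors made with RMA, a method that corrects background, normalizes arrays to each other and summarises probes, per the submitters' processing notes. The log2 scale was read from the values, and no version is stated there. Names came from the platform's annotation, in which 21789 had a single symbol, 1621 had several and 12147 were not listed. For each of 19938 genes the highest probe set by mean was used, with no filter on low values. Groups came from the titles. Induced minus uninduced was fitted with limma 3.58.1 (lmFit, eBayes without trend; R 4.3.3) over all genes, with Benjamini-Hochberg adjustment at 0.05. A second fit took limma's prior from the 1800 genes with 5 distinct values (prior SD 0.086, 2.87 degrees of freedom) and gave the 95% intervals. Equality of values was exact. The fits were run on simulated data without and with ties, and were required to meet set limits only on the data without ties. Alternatives changed the probe set, filter, normalization, spread, threshold and arrays used, or added the title number as a block. The number of arrays, 5, limits the precision. Promoter windows were matched by symbol for 30 of the 35 genes. The members, lists and alternatives were chosen with earlier results of these data known, and all members are named; from other lists the text names genes with the smallest p, and genes with the highest levels or separated groups, which were picked after their values were seen. Same-numbered arrays were not taken as pairs (correlations of their deviations -0.0063 and 0.0063).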

Additional observations from a re-analysis of the deposited data

How the results depend on the processing

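The count of T lymphocyte genes passing stayed at 0 in both directions in all 14 alternatives but the fits with a lone uninduced array, and lay between 0 and 4 higher and 0 and 1 lower when an array was left out. The count with separated groups was 0 and became 1 (Zap70) with centring, where 8.90% of all genes separated, and 9 with quantile normalization applied again, where 19.3% did; both shift tied values apart. It lay between 0 and 10 when an array was left out, with 7 and 10 without uninduced array 1 or 2, where 31.0% and 29.5% of all genes separated. The median change of 0 was 0.0060 for genes above the median level, 0.0011 with centring, 0.0016 with quantile normalization and -0.022 over the 5 untied members. The count above the array median on every array, 6, was 0 against the upper quartile and 7 against the 95th percentile of olfactory receptor genes. The 2 higher and 1 lower calls over all genes both became 0 for genes above the median level, centring, quantile normalization, the title number as a replicate block and the 1.5-fold minimum; the prior from genes with 5 distinct values gave 1 higher and 0 lower, untied genes gave 1 higher, and leaving out an array gave 0 to 1051 and 0 to 1097. Satb1 passed at 3.55 with that prior and with untied genes, and lay between 3.35 and 3.75 when an array was left out. With the replicate block 4 members changed the sign of a change that did not pass, and no call of a member changed. Each member had 1 probe set, so that probe sets of a gene could not be compared. The cause of the differences between alternatives was not tested.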

Other observations

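Genes of other blood cells were measured through lists of their markers, with median levels of 3.98 for myeloid cells, 3.98 for B cells, 3.19 for natural killer and cytotoxic cells and 5.08 for blood progenitors and endothelium. These medians come from different probe sets and were not tested against each other. Of 12 myeloid genes, 0 lay above the array median on every array, and the highest, the antibody receptor gene Fcgr1, had a mean of 4.66. Of 11 measured B cell genes, Igll1 alone did so, at 5.15 on all arrays, and of 10 genes of natural killer and cytotoxic cells, the chemokine gene Ccl5 alone, at 5.41 on all arrays. Of 14 blood progenitor and endothelial genes, 7 lay above the median on every array (48.2% of all genes did), among them Pecam1, an adhesion gene, at a mean of 7.07 and Kit, a receptor gene of stem cells, at 6.94. No gene of these 4 lists passed (limma), with 0 at an unadjusted p under 0.05.

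Exact values were shared between genes as well as between arrays. On each array, between 40.0% and 42.6% of the 19938 genes had a value that at least 1 other gene had too, and 14 to 19 of the 33 T lymphocyte genes did. Ctla4 shared its 4.09 on uninduced array 1 with 140 other genes, Ifng among them, and Il4 shared its 4.47 on induced array 3 with 156 other genes. Foxp3 shared its 4.78 with 84 to 100 other genes, depending on the array. A further 11 members shared no value with another gene on any array. They include Dntt and Il5, the members with the widest range over the arrays (0.57 and 0.45), and Il2ra. Below the array median 49.2% to 53.6% of genes shared their value, and above it 30.8% to 33.0%.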
